A study of Mus musculus with 14 samples.

Results

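The regions described here are H3K4me3 peaks that were called in Ezh2 knockout tumour cells, had no peak in control tumour cells, and lay where the control cells carried H3K27me3. The peaks were chosen by the calls of H3K4me3 in both kinds of cell and of H3K27me3 in the controls, so their absence from the control H3K4me3 list is no finding. A peak was taken when it shared 0 bp with any H3K4me3 peak of the control cells, labelled Cas9, and at least 1 bp with a H3K27me3 region of those cells. The rule selected 683 of the 14417 H3K4me3 peaks of the knockout, or 4.74%. Both kinds of tumour cell came from mouse Group 3 medulloblastoma tumorspheres with the genotype p53-/-;p18-/-, and per the series' design text they over-expressed Myc. The knockout cells were labelled p53-/-;p18-/- ;Ezh2-/- and the control cells p53-/-;p18-/-, and their libraries carry the name Cas9. Per the labels' protocols, cells infected with retroviral vectors were sorted on 2 fluorescent markers, expanded in culture and transplanted into the brains of nude mice. H3K27me3 regions are called islands in the plots. The labels do not say whether the cells profiled were taken before or after transplantation, whether a group is 1 clone or 1 tumour, or how many animals it came from. Each mark was profiled by chromatin immunoprecipitation and sequencing (ChIP-seq) in 1 library per kind of cell, so no value has a replicate error and no test across samples was possible. Positions are in mouse build mm9. The tumour cell type was not checked against marker genes, because the lists name no genes.

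H3K4me3 is placed on nucleosomes around the start sites of active or poised genes, and H3K27ac is found at active promoters and enhancers. H3K27me3 is written by Polycomb repressive complex 2, whose catalytic subunit is Ezh2, and covers silent developmental genes, often in broad domains. The closely related enzyme Ezh1 can also write H3K27me3. Promoters that carry H3K4me3 and H3K27me3 at once are called bivalent. The broadest Polycomb domains of many cell types lie over the Hox clusters, which encode the homeodomain factors that set position along the body axis.

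The H3K27me3 region with the most new H3K4me3 peaks was chr6:52099401-52237200, with 15. By general knowledge of the mouse genome, and not from the lists, this is the HoxA cluster. Its 11 genes span 106 kb in GRCm38, and the region in Cas9 cells was 138 kb long. Sequence of build mm9 was not used here, so the peaks themselves are not printed. In their place, RefSeq promoters in build GRCm38.p6 are shown for the HoxA genes at both ends and in the middle of the 9 that the table lists, as examples of the start sites of this gene cluster. Whether each lies within the H3K27me3 region was not analysed here. All 3 lie on the minus strand and run 5′ to 3′, and capitals mark CG dinucleotides, the letters CG, which read the same on both strands. Which peak lies at which of these promoters was not analysed here.
Hoxa13: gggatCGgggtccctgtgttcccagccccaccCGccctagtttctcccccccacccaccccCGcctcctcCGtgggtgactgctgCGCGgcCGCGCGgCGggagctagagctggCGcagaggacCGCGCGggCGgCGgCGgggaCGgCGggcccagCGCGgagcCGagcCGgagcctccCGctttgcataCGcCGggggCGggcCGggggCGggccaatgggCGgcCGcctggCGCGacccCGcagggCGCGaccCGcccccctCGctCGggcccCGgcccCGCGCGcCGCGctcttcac
Hoxa7: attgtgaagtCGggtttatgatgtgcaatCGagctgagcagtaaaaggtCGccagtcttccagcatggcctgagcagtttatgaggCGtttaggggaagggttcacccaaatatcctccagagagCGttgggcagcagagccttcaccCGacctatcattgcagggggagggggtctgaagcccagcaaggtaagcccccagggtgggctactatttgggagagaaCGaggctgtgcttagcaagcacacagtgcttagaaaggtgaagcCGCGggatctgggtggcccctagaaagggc
Hoxa2: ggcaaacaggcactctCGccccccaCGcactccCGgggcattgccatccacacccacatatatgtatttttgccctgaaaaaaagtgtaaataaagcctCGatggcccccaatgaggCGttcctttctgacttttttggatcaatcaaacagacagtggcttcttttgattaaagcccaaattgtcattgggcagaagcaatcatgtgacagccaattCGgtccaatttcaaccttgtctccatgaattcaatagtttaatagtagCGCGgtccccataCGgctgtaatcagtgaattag
The Hoxa13 promoter held 45 CG dinucleotides in 300 bases, a number that 1.93% of the 32851 promoters in the table reach. The promoters of Hoxa7 and Hoxa2 held 9 each, which 45.8% reach. Over the 10 HoxA promoters listed the number ranged from 4 to 45 with a median of 17.5, against a median of 7 over all promoters.

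New H3K4me3 was more often called within former H3K27me3 than H3K4me3 was lost there. Knockout cells alone had 1418 H3K4me3 peaks, 9.84% of their list, and the 683 inside H3K27me3 regions of Cas9 cells made up 48.2% of them (45.6 to 50.8, Wilson 95% interval). Of knockout H3K4me3 peaks that overlapped a Cas9 peak, 12.2% (11.7 to 12.8) lay in such regions. Inside the H3K27me3 regions there were 683 peaks of the knockout alone and 214 of Cas9 cells alone, a ratio of 3.19. Outside them there were 735 and 1876, a ratio of 0.392. Among peaks of at least 300 bp these ratios were 5.10 and 0.269. Among peaks over 1 kb from any H3K4me3 peak of the other cells they were 3.98 and 0.426. These counts rest on the same calls as the choice of the peaks and are given as a description. Intervals here and below cover counting error only, and they treat peaks as independent although some share a region.

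The new peaks were weak and narrow by the standards of their own list. Their scores, which the authors give per peak without a unit, ran from 8 to 32 with a median of 12, against 22 over all knockout H3K4me3 peaks. A score under 22 was found for 96.5% of them, for 99% of new peaks outside H3K27me3 regions, and for 58.1% of the 1587 knockout peaks that lay inside H3K27me3 regions and were shared with Cas9 cells. Their median width was 277 bp, against 220 bp for new peaks outside and 561 bp for shared peaks inside. The shortest measured 180 bp, which is also the shortest width in the whole list. Read depth is unknown, so a place where Cas9 cells have no peak may be one that missed the authors' threshold.

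The strongest new peak had a score of 32 and lay at chr8:125951826-125952013. It was 188 bp wide, stood 239 bp from an H3K4me3 peak of Cas9 cells, and kept H3K27me3. The next ones were in the HoxA region, at chr6:52141115-52141868 with a score of 31, chr6:52194735-52195528 with 30 and chr6:52108348-52108927 with 29. All 3 carried H3K27ac in the knockout and stood 394 to 481 kb from H3K4me3 of Cas9 cells. Scores of 28 were reached at chr11:96180102-96180689 in the HoxB cluster, at chr2:74542715-74543958 in the HoxD cluster and at chr4:147504638-147505471. The peak at chr4:147504638-147505471 was the only new one in its 11.8 kb region and carried H3K27ac. A score of 27 was reached at chr11:23978723-23979307 and chr4:135242274-135242572, neither with H3K27ac. The tenth, chr1:191994159-191994588, had a score of 25 and was likewise not acetylated; 3 others shared its score.

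At the edges of the rule the calls were weak. The new peak with the smallest share of a H3K27me3 region was chr4:137417840-137418019, with 19 bp inside and a score of 9. The nearest peak left out on that side was chr4:43052815-43053155, 14 bp from a region, with a score of 14. On the other side, chr4:138647984-138648173 was taken at 1 bp from a Cas9 H3K4me3 peak, with a score of 12. The peak chr11:118952370-118952574, which shared 6 bp with one and had a score of 10, was not.

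Few of the new peaks were acetylated in the knockout. H3K27ac of the knockout overlapped 89 of 683, or 13% (10.7 to 15.8), against 61.9% of all knockout H3K4me3 peaks. Among new peaks outside H3K27me3 regions the share was 15.5% (13.1 to 18.3), and the difference of -2.48 percentage points had an interval of -6.11 to 1.18 that includes 0. Among shared peaks inside H3K27me3 regions it was 45.6% (43.1 to 48.0), a difference of -32.5 points (-35.9 to -28.9). In Cas9 cells H3K27ac was called at 1 of the 683 places, or 0.146% (0.0259 to 0.825). The share was 6.39% of new peaks outside, 7.94% of shared peaks inside and 50.0% of all knockout H3K4me3 peaks. New peaks inside were chosen for H3K27me3 and against H3K4me3 in Cas9 cells. New peaks outside did not meet the first condition, nor shared peaks the second. The part of the rule in these contrasts was not tested, and they are description only. The 90 H3K27ac peaks on new H3K4me3 included 1 that overlapped a H3K27ac peak of Cas9 cells. H3K27ac in the affected regions seldom lay apart from H3K4me3. Of 165 knockout H3K27ac peaks in regions with new H3K4me3, 90 lay on a new peak, 67 on a shared H3K4me3 peak and 8 on none. These regions hold knockout H3K4me3 by the rule. The same shares over all 10112 knockout H3K27ac peaks are not given here, so this is not shown to be particular to these regions.

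**Figure D1:**
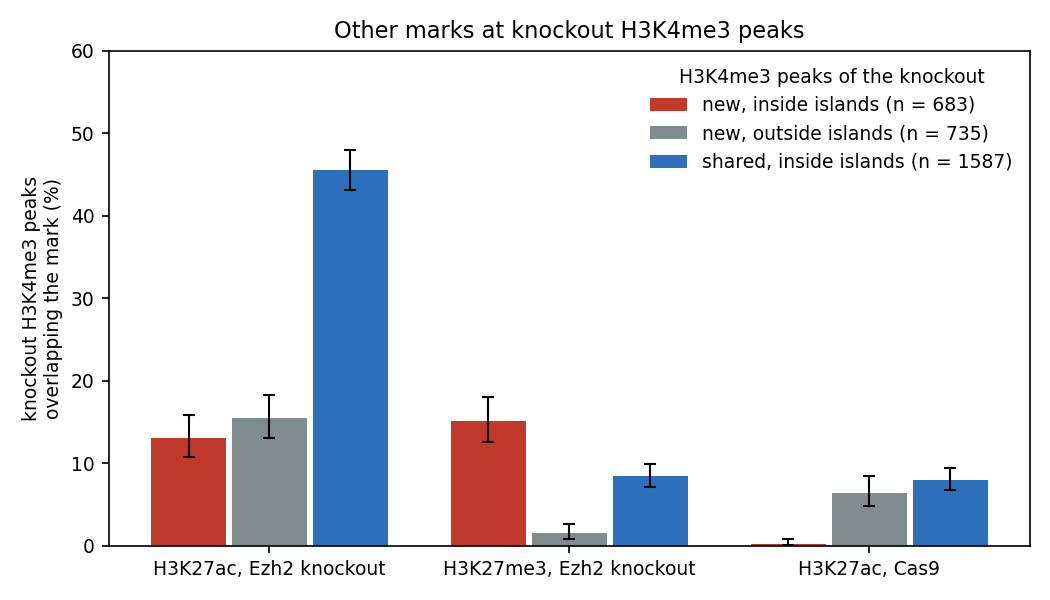
Share of knockout H3K4me3 peaks that overlapped each mark (%, y axis) for new peaks inside H3K27me3 regions of Cas9 cells, new peaks outside and shared peaks inside; bars are shares and lines are Wilson 95% intervals for counting error. New peaks inside carried H3K27ac of the knockout in 13% of cases and H3K27me3 in 15.1%, while shared peaks inside carried them in 45.6% and 8.44%.

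The gap in acetylation to shared peaks was smaller among peaks of like score. The share with H3K27ac was 7.05% for new peaks inside with scores of 7 to 10 and 5.18% for scores of 11 to 12. It was 14.6% for scores of 13 to 15, 21% for 16 to 20 and 50.0% (33.6 to 66.4) for the 32 peaks with scores of 21 to 32. Shared peaks inside stood at 10.3%, 14.1%, 20.9%, 32.3% and 64.6% (60.6 to 68.5) in the same classes. Given the score mix of the new peaks, shared peaks inside would stand at 20.7% and new peaks outside at 18.5%, against the observed 13%. New peaks inside had a lower share than new peaks outside except in the highest class, at 50.0% against 45.5% of 11 peaks. At scores of 11 to 12 their intervals did not overlap, at 2.84 to 9.27% against 10.9 to 19.8%. Against shared peaks inside, new peaks inside had the lower share in each of the 5 classes. The separate intervals of new and shared peaks inside overlapped in each class. In the lowest they were 3.98 to 12.2% against 5.29 to 19.0%, and in the highest 33.6 to 66.4% against 60.6 to 68.5%. Such overlap does not show that a difference lies within counting error, and intervals of the difference are not given by class. With the knockout H3K27ac list trimmed by score to the number of the Cas9 list, the shares were 6.15% for new peaks inside, 9.80% for new peaks outside and 31.0% for shared peaks inside. Acetylation thus depended on which H3K27ac calls were admitted in all 3 classes, and its order among them stayed the same.

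**Figure D2:**
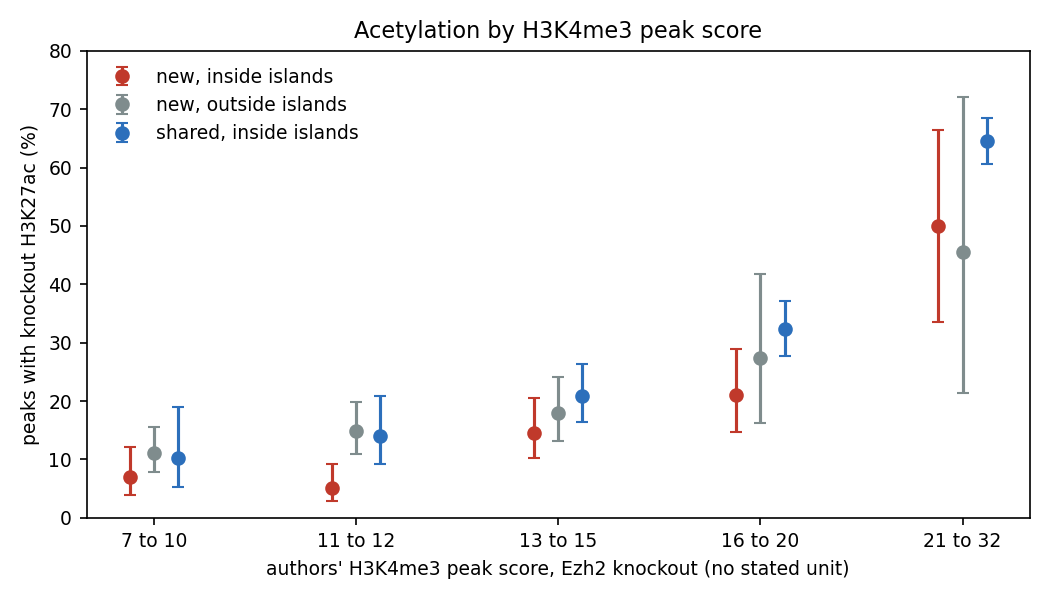
Share of peaks with knockout H3K27ac (%, y axis) by the authors' H3K4me3 score class in the knockout (x axis, no stated unit); points are shares and lines are Wilson 95% intervals. For new peaks inside former H3K27me3 the share was 7.05% in the lowest class and 50.0% in the highest, and shared peaks inside stood at 10.3% and 64.6%.

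Some new H3K4me3 lay where H3K27me3 remained. Knockout H3K27me3 overlapped 103 of 683 peaks, or 15.1% (12.6 to 18.0), against 2.05% of all knockout H3K4me3 peaks. The share was 1.5% (0.838 to 2.66) of new peaks outside, a difference of 13.6 points (10.8 to 16.5). New peaks inside were chosen for H3K27me3 in Cas9 cells, and new peaks outside for its absence. The contrasts with peaks outside and with all peaks thus follow in part from the rule and are description only. Shared peaks inside also lay in H3K27me3 regions of Cas9 cells. Their share was 8.44% (7.17 to 9.91), a difference of 6.64 points (3.75 to 9.78). Given the score mix of the new peaks, shared peaks inside would stand at 11%. Of the 103 peaks, 94 lay wholly inside knockout regions, whose median length of 2800 bp was close to the 3000 bp of all knockout H3K27me3 regions. A further 69 new peaks had none themselves but lay in a former region that the knockout still marked elsewhere.

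New peaks in Cas9 antibody regions of neurospheres more often kept H3K27me3. Neurospheres are floating cultures of neural cells, here with the genotype p53-/-;p18-/-, and their Cas9 antibody lists came from cells labelled U6, Suz12F1 and Suz12F2. The U6 list overlapped 16.7% of the new peaks, 24.3% of shared peaks inside H3K27me3 regions and 13.7% of all knockout H3K4me3 peaks, and the Suz12F2 list 7.61%, 12.4% and 6.71%, while the Suz12F1 list overlapped 0 new peaks. A region of any of the 3 lists overlapped 139 of the new peaks, and 30.2% (23.2 to 38.3) of these kept H3K27me3, against 11.2% (8.83 to 14.1) of the other 544. H3K27ac was called on 12.9% and 13.1% of the same sets. Whether the H3K27me3 calls are linked to what the Cas9 antibody lists hold was not tested.

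Most new peaks carried neither other mark. Of the 683 peaks, 77 carried H3K27ac alone, 91 carried H3K27me3 alone, 12 carried both and 503, or 73.6% (70.2 to 76.8), carried neither. Over all knockout H3K4me3 peaks 36.6% carried neither. The share was higher still among new peaks outside, at 83.0% (80.1 to 85.5), and was 48.6% (46.2 to 51.1) among shared peaks inside. Carrying neither was thus not particular to new peaks inside former H3K27me3. Both marks lay on 1.76% (1.01 to 3.05) of the new peaks and on 0.583% of all. They lay on 2.65% (1.96 to 3.56) of shared peaks inside and on 0 of 735 new peaks outside. Peaks with both included the HoxA peaks chr6:52141115-52141868 and chr6:52184038-52184970 and the HoxD peak chr2:74542715-74543958. The strongest peak with both outside these clusters was chr5:102092411-102093417, with a score of 25 and a width of 1007 bp. A second new peak stood beside it at chr5:102093605-102094272, with a score of 15, with H3K27ac and without H3K27me3.

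Most affected regions gained a single peak. The 683 peaks fell in 559 of the 14107 H3K27me3 regions of Cas9 cells, or 3.96%, and each peak lay in exactly 1 region. There were 491 regions with 1 new peak, 52 with 2, 8 with 3 and 3 with 4. The others held 6, 8, 10, 13 and 15. The 68 regions with 2 or more were 0.482% of all regions and held 192 peaks, 28.1% (24.9 to 31.6) of the total. They were 12.2% of the regions with any new peak. For shared H3K4me3 the figure was similar, since 171 of 1386 regions with a shared peak, or 12.3%, held 2 or more. Neighbouring new peaks of 1 region were often close, with 66 of 124 gaps at or under 1 kb and a median gap of 862 bp. Joining peaks within 1 kb left 617 stretches, and 28 regions then held 2 or more.

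Longer regions more often held new H3K4me3. The share with any was 2.02% (1.37 to 2.96) under 2 kb, 2.1% from 2 to 5 kb, 5.35% from 5 to 10 kb, 11.2% from 10 to 20 kb and 27.3% (21.9 to 33.4) for the 231 that reached 20 kb. Room grows with length, and per length the order was not the same. New peaks numbered 13.6 per Mb in the shortest class, 6.90, 8.89 and 10.6 per Mb in the next ones and 19.3 per Mb in the longest. Acetylation was likewise uneven, at 30.8% of 26 new peaks in the shortest class, 6.49%, 12.3% and 7.25% in the middle ones and 26.2% of 130 in the longest. In the longest class, the 4 Hox regions described below held 44 of the 130 new peaks and 18 of the 34 with H3K27ac. H3K27me3 remained on 3.85% of new peaks in the shortest class and on 8.11%, 15.7%, 17.4% and 23.8% in the following ones. Of the 231 long regions, 168 held no new peak. The longest of those without one, chr5:33816001-33894000 with 78.0 kb, held 0 H3K4me3 peaks in either kind of cell.

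**Figure D3:**
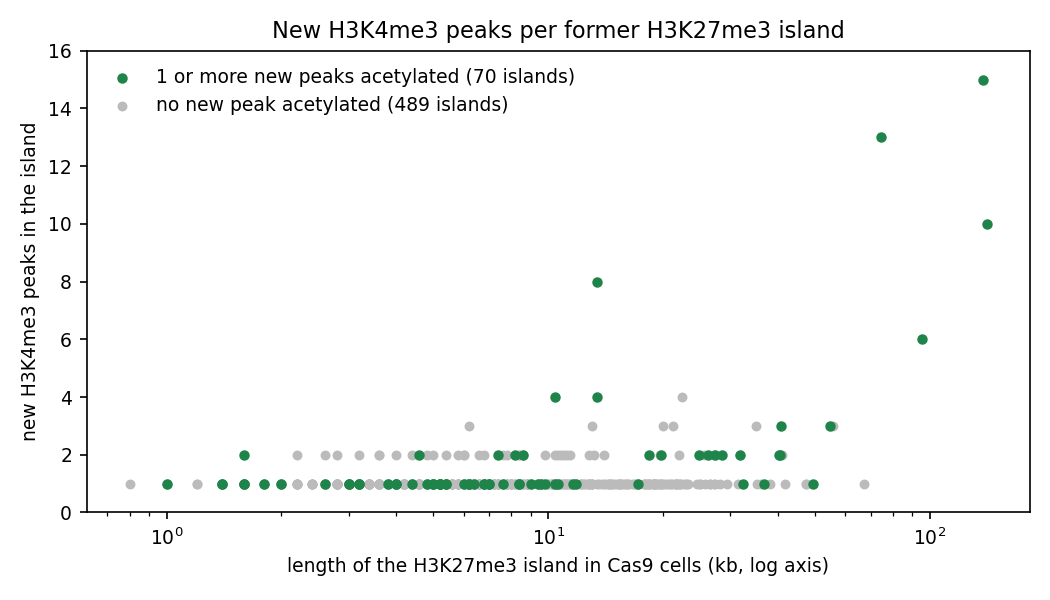
Number of new H3K4me3 peaks (y axis) against the length of the H3K27me3 region in Cas9 cells (kb, log x axis) for the 559 regions with at least 1; green points mark the 70 regions in which a new peak carried H3K27ac. The regions with 15, 13 and 10 new peaks are among the longest, while the one with 8 measured 13 kb.

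Of the 5 regions with the most new peaks, 4 lay over Hox clusters. By general knowledge of the mouse genome, HoxA, the middle of HoxB, HoxC and HoxD lie in chr6:52099401-52237200, chr11:96108401-96182800, chr15:102736601-102877600 and chr2:74516201-74611600. No other H3K27me3 region of the controls scored higher than these 4. They held 15, 13, 10 and 6 new peaks. H3K27ac lay on 8 of 15 in HoxA, 3 of 13 in the HoxB region, 5 of 10 in HoxC and 2 of 6 in HoxD. Together that was 18 of 44, or 40.9% (27.7 to 55.6), against 71 of the other 639, or 11.1% (8.90 to 13.8). Their median score was 15, against 12 for the others, and their median width 450 bp, against 272 bp. H3K27me3 remained on 15.9% and 15% of the same sets. The rest of HoxB, in further regions, is counted with the others. This split was made after the values were seen.

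In HoxA the new peaks spread over 102813 bp, in 12 stretches after joining within 1 kb, and had scores of 10 to 31. The 8 with H3K27ac were spread along the cluster, the first at chr6:52108348-52108927 and the last at chr6:52194735-52195528. The pair at chr6:52209964-52210266 and chr6:52210446-52211160, at the far end, had scores of 16 and 20 and no H3K27ac. H3K27me3 remained on 5 of the 15, and 4 regions of the knockout covered 7.55% of the length. In the HoxB region the highest score, 28, belonged to chr11:96180102-96180689, which was not acetylated, while the acetylated peaks chr11:96112792-96113551, chr11:96132791-96133537 and chr11:96145492-96145956 scored 19, 14 and 19. None of its 13 new peaks kept H3K27me3. In HoxC the widest new peak of all, chr15:102785331-102786886 with 1556 bp, had a score of 20 and no H3K27ac. HoxD alone among the 4 had H3K4me3 in Cas9 cells, as 1 peak, and chr2:74535662-74535906 stood 192 bp from it. By the same general knowledge, chr11:96038801-96079600 and chr11:96183601-96238400 cover the ends of HoxB. They held 3 new peaks each, of which 1 and 2 were acetylated.

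The region with 8 new peaks held them close together. At chr11:23973001-23986400 the peaks lay within 5542 bp, joined into 2 stretches of which the longer measured 3845 bp, and had scores of 9 to 27. Only chr11:23979720-23979979 was acetylated, and 0 H3K27me3 regions of the knockout remained there. Its density of 5.97 new peaks per 10 kb compared with 1.09 in HoxA, a far longer region of 138 kb. Other short regions were also denser than HoxA, with 4.84 per 10 kb in chr16:9990601-9996800 and 3.85 in chr15:74341801-74352200. The part of region length in these densities was not tested. Regions with 4 new peaks lay at chr12:74135601-74158000, chr11:69606001-69619400 and chr15:74341801-74352200, and each joined into 2 stretches. H3K27me3 remained on 3 of the 4 peaks in chr15:74341801-74352200.

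**Figure D4:**
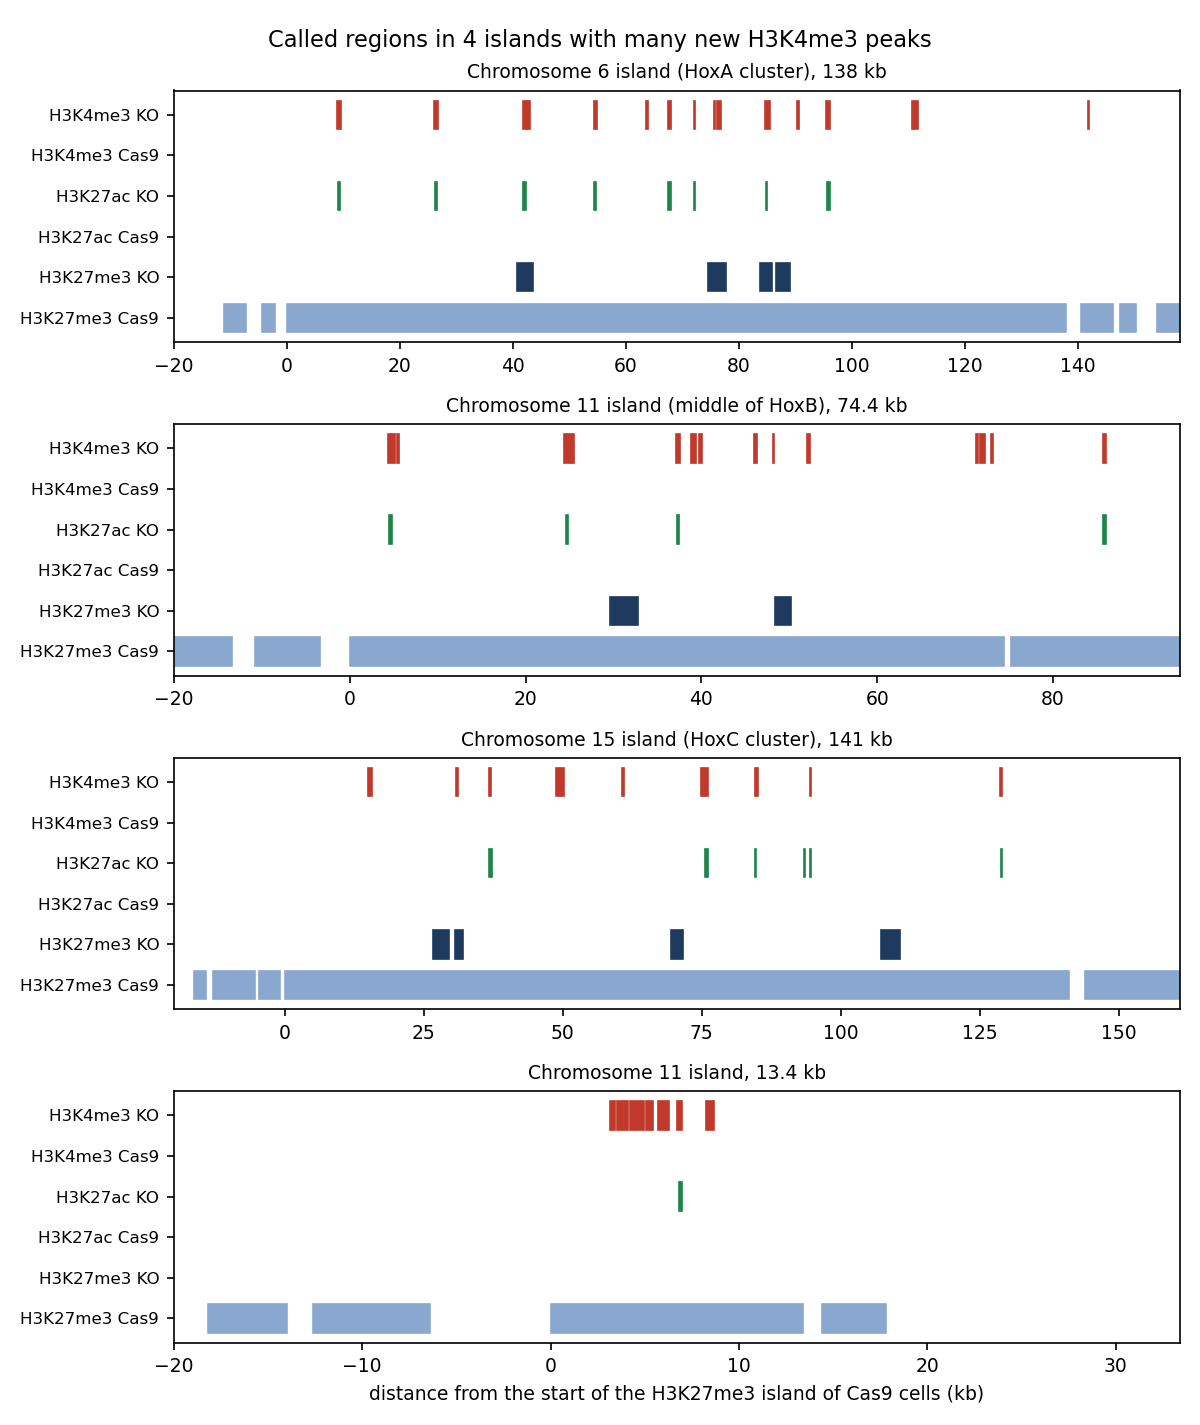
Called regions of 3 marks in the knockout (KO) and Cas9 cells across the 4 H3K27me3 regions with the most new H3K4me3 peaks, with 20 kb on each side; the x axis is distance from the start of the region in kb and boxes are called regions, not signal. Within the regions the knockout rows hold 15, 13, 10 and 8 H3K4me3 peaks where Cas9 cells had 0, and those of the 13 kb region lie close together.

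Regions that gained H3K4me3 were more often still marked by H3K27me3 in the knockout. A knockout region overlapped 110 of 559, or 19.7% (16.6 to 23.2), against 11.9% of all H3K27me3 regions of Cas9 cells. They were also longer, with a median of 6.40 kb against 3.80 kb over all, and the part of length in this overlap was not tested. Of their summed length of 5696 kb, 7.57% was covered by knockout H3K27me3, against 7.09% over all regions, values that have no replicate error. A knockout H3K27ac peak lay in 22.4% of the regions that gained H3K4me3, against 5.43% of all regions. Among those with 2 or more new peaks the share was 41.2% (30.3 to 53.0). By the rule all 559 held knockout H3K4me3, whereas 1835 of all 14107 regions did. The H3K27ac shares were not compared among regions with knockout H3K4me3 alone. The part of the rule in this contrast was thus not tested, and the shares are description only.

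New peaks inside former H3K27me3 were mostly far from H3K4me3 that Cas9 cells already had, whereas new peaks elsewhere mostly stood beside it. The gap to the nearest Cas9 H3K4me3 peak had a median of 44.7 kb (38.0 to 54.9) for new peaks inside, with quartiles of 8523 and 127571 bp. For new peaks outside the median was 363 bp and the quartiles 141 and 17644 bp. Within 1 kb of a Cas9 peak lay 126 of 683 new peaks inside, or 18.4% (15.7 to 21.5), and 445 of 735 outside, or 60.5% (57.0 to 64.0). Within 5 kb the shares were 22.7% (19.7 to 26) and 65.9% (62.3 to 69.2), and within 50 kb 52.1% and 83.9%. Cas9 H3K4me3 lay in 10.8% of H3K27me3 regions, and the part of that scarcity in the distances was not tested.

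**Figure D5:**
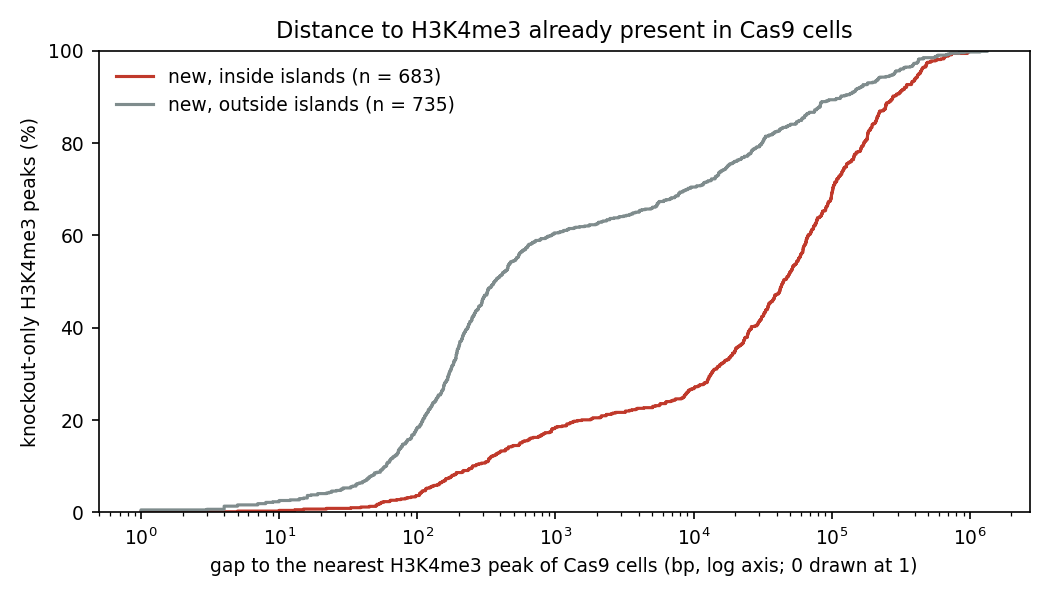
Cumulative share of knockout-only H3K4me3 peaks (%, y axis) by gap to the nearest H3K4me3 peak of Cas9 cells (bp, log x axis) for the 683 inside former H3K27me3 and the 735 outside. At 1 kb the curve has reached 18.4% for peaks inside and 60.5% for peaks outside.

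The new peaks beside existing H3K4me3 were the weaker ones. Those within 1 kb had a median score of 11 and a median width of 221 bp, and those over 50 kb away 13 and 305 bp. H3K27ac was called on 5.56% (2.72 to 11) of the first and on 18.0% (14.3 to 22.6) of the second. H3K27me3 remained on 15.1% and 17.7%. Of the 126 within 1 kb, 120 had that Cas9 peak in the same H3K27me3 region. For 102 of the 126, or 81.0% (73.2 to 86.9), the knockout still had a peak on that neighbour, so the new peak flanked H3K4me3 that was kept. The share was similar for new peaks outside within 1 kb, at 379 of 445 or 85.2% (81.6 to 88.2). Over all 683, 155 lay in a region that held a Cas9 H3K4me3 peak. The nearest, after that at 1 bp, were chr4:84851634-84851878 at 5 bp and chr8:59799762-59800071 at 10 bp, and neither was acetylated.

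The 5 most isolated new peaks had scores of 8 to 21. The farthest, chr9:81526833-81527053, stood 1196123 bp from any Cas9 H3K4me3 peak and had a score of 8. Next came chr12:12268968-12269337 at 986174 bp with a score of 21. The pair chr1:18048099-18048431 and chr1:18048496-18048678, in 1 region of 2.20 kb, stood 959980 and 960377 bp away with scores of 9 and 11. The fifth, chr18:89938538-89938980, stood 740204 bp away with a score of 16. None of these 5 carried H3K27ac or H3K27me3 of the knockout.

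Within their region the new peaks lay away from the borders somewhat more often than shared peaks did. Of the 683, 671 lay wholly inside the region and 70.0% (66.4 to 73.3) had their centre in the middle 50% of its length, against 63.9% (61.5 to 66.2) of shared peaks inside. The median distance from the centre of a new peak to the nearest border was 2382 bp, against 1331 bp for shared peaks. Shared peaks were wider, with a median of 561 bp against 277 bp, and 1391 of 1587 lay wholly inside. The part of peak width and region length in these values was not tested. The new peaks lay on 20 chromosomes, with 71 on chromosome 11, 54 each on chromosomes 7 and 15, and 5 on chromosome X.

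The Gfi1 antibody lists of neurospheres covered nearly all of these places, as they did H3K4me3 in general. Gfi1 is a zinc finger repressor. The Suz12F2 neurospheres had a Gfi1 antibody region at 682 of 683, or 99.9%, against 98.1% of all knockout H3K4me3 peaks. The Cas9 neurospheres had one at 649, or 95% (93.1 to 96.4), against 87.5%. Shared peaks inside H3K27me3 regions stood at 94.4% in Cas9 neurospheres, and the difference of 0.630 points had an interval of -1.53 to 2.50 that includes 0. New peaks outside stood at 80.8% (77.8 to 83.5). With a background this high the overlap shows nothing about the new peaks, and neurospheres are other cells than the tumours.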

How the data were processed

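Called regions from 11 ChIP-seq libraries, 6 of tumour cells and 5 of neurospheres, were analysed; each group had 1 library, and input libraries were not used here. The submitters' processing notes list, giving no roles, SICER 1.1, SAMtools, Picard, BWA 0.5.9-r26 and R 2.14.0, with mm9 as build. The H3K27me3 and neurosphere lists hold islands, here called regions; per the names of the deposited lists, window, gap and false discovery rate were 200 bp, 600 bp and 0.00001. Their ends name the last base, so 1 bp was added. The caller of the H3K4me3 and H3K27ac peaks is not given. The deposited score per region has no stated unit and was used to rank or class regions within 1 list. Depth is unknown. In the Cas9 H3K4me3 list 486 numbers are skipped; whether a peak stands behind each is unknown, none was analysed here, and 19 of the 683 new peaks lie at such places.

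Overlaps and distances (gap between nearest edges) were obtained with numpy 2.4.6 under Python 3.11.15; scipy 1.17.1 served for checks and matplotlib 3.10.9 for figures. Shares carry Wilson 95% intervals, differences between shares Newcombe intervals, and the median distance an interval from order statistics. Overlap counts were checked against bedtools 2.31.1 in 42 list pairs, of which 0 differed, and tested on simulated data, where 400 of 400 planted peaks were recovered. Score, length and distance classes, the standardised shares, the joining within 1 kb and the counts of gained and lost peaks were added after values were seen. The peaks, lists and rules were chosen with earlier results of these data known. Regions named are the 10 highest-scoring new peaks, those with the highest scores per mark, the regions with most new peaks, the nearest and farthest, and those at the rule's edges, with exceptions stated. RefSeq annotation was of GRCm38.p6, another build, so genes were not assigned to regions, and promoters were found by symbol.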

Additional observations from a re-analysis of the deposited data

How the results depend on the processing

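Of 78 recomputed values, 51 stayed within the counting interval of the reported value, or for the number of peaks within 1.5 times, and 27 moved. They include 3 settings chosen after seeing the data: 1 peak per region, no regions with 6 or more new peaks, and no peaks at skipped numbers. Of these 3, only the second moved a value, the share of peaks with company in their region, to 22.2%. In the upper 50% of H3K4me3 scores 24 peaks remained; they were 77.4% of such new peaks, 62.5% had H3K27ac, 25% had H3K27me3, the median distance was 143 kb and 12.5% lay within 5 kb. With peaks of at least 300 bp there were 296, making up 65.9%, with H3K27ac on 20.9%, 22.6% in company, a median distance of 65.1 kb and 11.5% within 5 kb. With 50% cover of the knockout peak required for an overlap, 865 peaks were taken rather than 683. Peaks that shared less than this with Cas9 H3K4me3 then counted as new. In that setting the share of new peaks was 44.7%, H3K27ac 8.79%, the median distance 22.8 kb and the share within 5 kb 39.0%. With no Cas9 H3K4me3 within 1 kb, these were 65.8% for the share of new peaks, 66.0 kb and 5.21%. The share of new peaks was 42.3% with the upper 50% of H3K27me3 scores and 44.6% without Cas9 antibody regions, where H3K27me3 remained on 11.2%. H3K27ac was 6.15% with the trimmed list and 22.4% within 1 kb. H3K27me3 anywhere in the region gave 25.2%, and merging regions within 5 kb gave 33.4% in company. The cause of these shifts was not tested, beyond what each setting removes or admits. No paired analysis was possible because each group had 1 library.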
